A study of Prunus persica with 2 samples.

Results

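Peach (Prunus persica) fruit small RNAs of 23 nt that were predicted as miRNAs from only 1 arm of a hairpin, with a sequence found at only 1 predicted locus, are described here. The small RNA list held 275 predicted loci with 329 listed sequences. Of these loci, 221 had 1 listed sequence, 88 of the 221 sequences were 23 nt long, and 56 of the 88 were listed under no other predicted locus. These 56 loci (20.4% of the predicted loci) are called the 23-nt loci below. The other 32 shared their sequence with another predicted locus. For comparison, the same choice at 21 nt gave 62 loci, and at 20 to 22 nt it gave 88 loci, which include the 62.

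Fruit of the yellow-fleshed cultivar 'Troubador', from field-grown trees, was sampled after full bloom at day 35, day 55, day 75, day 90 and day 105, and equal amounts of RNA from each date were pooled. The series has 1 small RNA library and 1 degradome library. No condition, genotype or stage can be compared, and no value below has a replicate. Intervals are exact at the 95% level. Those of read counts cover counting error only. Those of shares and medians treat the loci as independent draws, although all predicted loci were used and some have similar sequences. Their overlap is given as description only. Reads were PCR-amplified and carry no molecular identifier, so they are not independent molecules. Differences between length classes were not tested.

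Plant miRNAs are cut by a Dicer-like enzyme from an RNA hairpin, which gives a duplex of the miRNA and its partner strand from the opposite arm. Many begin with U, are loaded into an Argonaute protein and guide cleavage of mRNAs to which they pair almost perfectly, opposite the middle of the small RNA. Other Dicer-like enzymes make small interfering RNAs, of which those of 24 nt act mainly on chromatin. Reads from both arms of a hairpin are one criterion for annotating a miRNA, and by the rule used here all 56 loci lack the second arm in the list. A degradome library collects the 5′ ends of cut mRNAs, so a cleaved target appears as reads starting at a fixed site.

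The 10 most abundant 23-nt loci are shown to let their sequences be compared. The seed, bases 2 to 8 from the 5′ end, is in capitals, and T stands for U, as in the list.
m0069-3p: aGAGGATTaggcgagcatctcta
m0248-3p: aTATAGGAattcttgaacccaag
m0190-5p: aTCACTCAtggtcgttaacgtta
m0043-3p: cATGCCTCtgaactcggcttcta
m0173-5p: gATTTGGGttattgttggaatta
m0145-5p: aTTGAAAAcacagggactaaatt
m0133-5p: tAGTGACTggactgggttgtcta
m0024-5p: aCGGAGCCatgcgttgagcacaa
m0134-5p: cCTGGGGAagaggatcaagttgg
m0236-3p: tGATCCGGgctggactgggtata

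All 56 seeds differed from one another. None was the seed of any of the 34 conserved miRNA families in the list. Only 4 of the 56 shared a seed with some other listed sequence. These 4 were named after their values were seen: m0072 with the predicted m0027-3p, m0246 with miR5252, m0160 with miR4413, and m0173 with both miR3706 and miR5561. m0072-3p (10 reads) and m0027-3p (71 reads) also shared a stretch of 12 nt. None of the 56 sequences was listed as a known miRNA.

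The 23-nt loci held a small share of the listed reads. Together they had 1617 reads, 3.03% of the 53349 reads of all predicted sequences and 0.0701% of the 2308209 reads in the list. Read counts ran between 5 and 337, with a median of 12 (interval 10 to 14) and quartiles of 8.75 and 20.5. The 21-nt loci had a median of 16.5 (interval 12 to 28), quartiles of 9 and 53.8 and a highest count of 5552. The intervals of these 2 medians overlap, while the upper end of the 21-nt class was higher. Over all 329 predicted sequences the median was 15 (interval 12 to 17). Over the 557 known miRNAs it was 1 (interval 1 to 2), with a highest count of 1910151. The share of all listed reads is thus set mostly by that 1 known miRNA. The lowest count was 5 in the 23-nt and 21-nt loci and 1 in the known miRNAs, so their medians do not compare typical abundance.

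Few loci carried most of the reads. m0069 had 337 reads (interval 302 to 375), m0248 had 252 (222 to 285) and m0190 had 152 (129 to 178). These 3 held 45.8% of the reads of the 23-nt loci, and the 10 highest held 66.8%. m0043 followed with 87 reads, m0173 with 73, m0145 with 42, m0133 with 39, m0024 and m0134 with 33 each, and m0236 with 32. The intervals of m0069, m0248 and m0190 do not overlap each other, whereas those of the loci between 32 and 42 reads do. At the low end, 16 loci had 5 to 9 reads, and m0199, m0239 and m0261 had 5 each (interval 1.62 to 11.7).

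**Figure D1:**
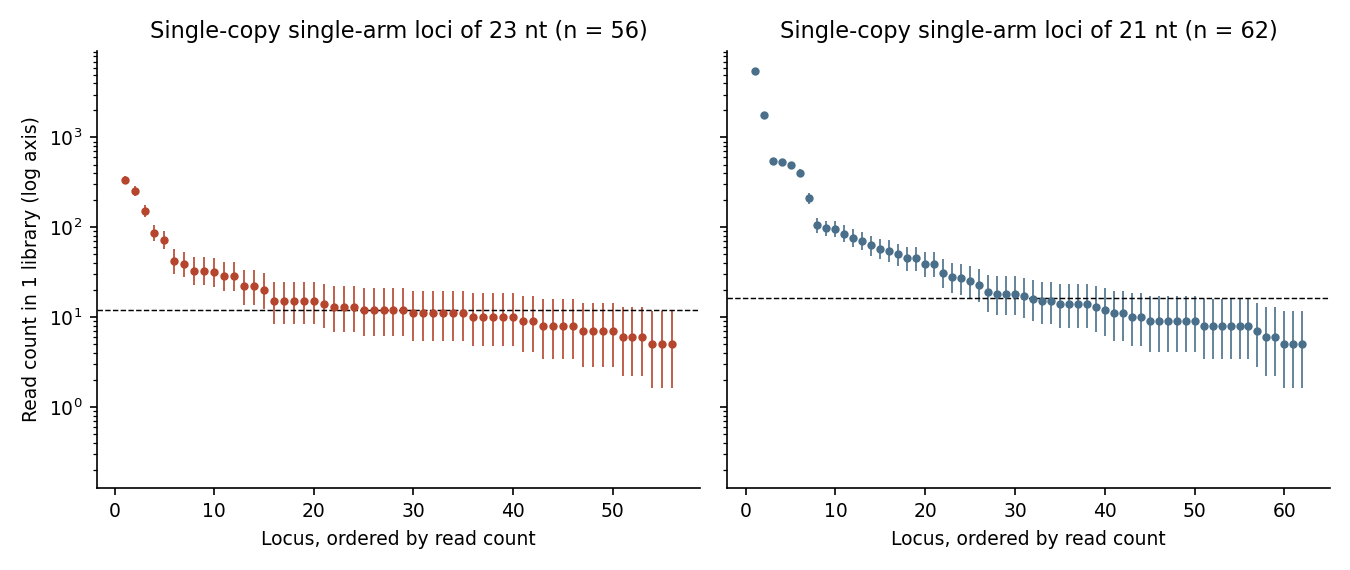
Read counts on a log axis for the 56 single-copy single-arm loci of 23 nt (left) and the 62 of 21 nt (right), 1 point per locus in order of count, with exact Poisson intervals and the class median as a dashed line. The 23-nt loci end at 337 reads, while the 21-nt loci reach 5552.

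At the 5′ end the 23-nt loci had no single leading base. A was first in 18 of 56, U in 16, C in 13 and G in 9. U was thus first in 28.6% (interval 17.3 to 42.2%), against 32 of 62 (51.6%, 38.6 to 64.5%) in the 21-nt loci and 47 of 88 (53.4%, 42.5 to 64.1%) in the loci of 20 to 22 nt. The interval of the 23-nt loci overlaps that of the 21-nt loci and ends just below that of the loci of 20 to 22 nt. Counted by reads instead of loci, A was first in 61.7% of the reads of the 23-nt loci and U in 13.2%. Of the 997 reads that began with A, 741 were those of m0069, m0248 and m0190.

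The 3′ end was more uniform. A was the last base in 35 of 56 loci (62.5%, interval 48.5 to 75.1%), against 23 of 62 (37.1%, 25.2 to 50.3%) in the 21-nt loci and 32 of 88 (36.4%, 26.4 to 47.3%) in the loci of 20 to 22 nt. For the last base, the interval of the 23-nt loci overlaps that of the 21-nt loci and not that of the loci of 20 to 22 nt. U stood next to last in 41 of 56 (73.2%, 59.7 to 84.2%), against 15 of 62 (24.2%, 14.2 to 36.7%). The pair UA closed 26 of 56 sequences (46.4%, 33.0 to 60.3%), against 6 of 62 (9.68%, 3.63 to 19.9%) in the 21-nt loci and 49 of 557 (8.80%) of the known miRNAs. For the last 2 of these 3 features the intervals of the 23-nt and 21-nt loci do not overlap. Counted by reads, U stood next to last in 68.5% for the 23-nt loci and 61% for the 21-nt loci, so that contrast was small. A was last in 68% and 15.2% of the reads, and UA closed 56.8% and 5.77%. However, 1 locus, m0189, held 5552 of the 10990 reads of the 21-nt loci. It had U next to last and G last, so the read shares of the 21-nt loci rest mostly on it. The position before the end and the UA pair were picked out after the sequences were seen. The UA ending is shown in capitals for the 3 loci with the fewest reads, all of which have it.
m0199-5p: aatagttagcaaacgggccttTA
m0239-3p: aggaggtgtctatgtaatttcTA
m0261-3p: gaaatagtatcgtcgaacggtTA

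UA endings occurred on both arms, in 12 of 24 loci of the 3p arm and 14 of 32 of the 5p arm. They were also found in 12 of the 19 other predicted 23-nt sequences (63.2%, interval 38.4 to 83.7%), which the choice of loci left out because they had a second locus or a second arm. Of the 26 UA endings, 11 were CUA and 10 were UUA. Elsewhere along the 23 bases no base reached the share of U next to last: over positions 1 to 21 the highest share was 44.6%, for G. In the hairpins, the first base after the small RNA was A or U in 38 of 52 23-nt loci (73.1%, 59.0 to 84.4%) and in 37 of 59 21-nt loci (62.7%, 49.1 to 75.0%).

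**Figure D2:**
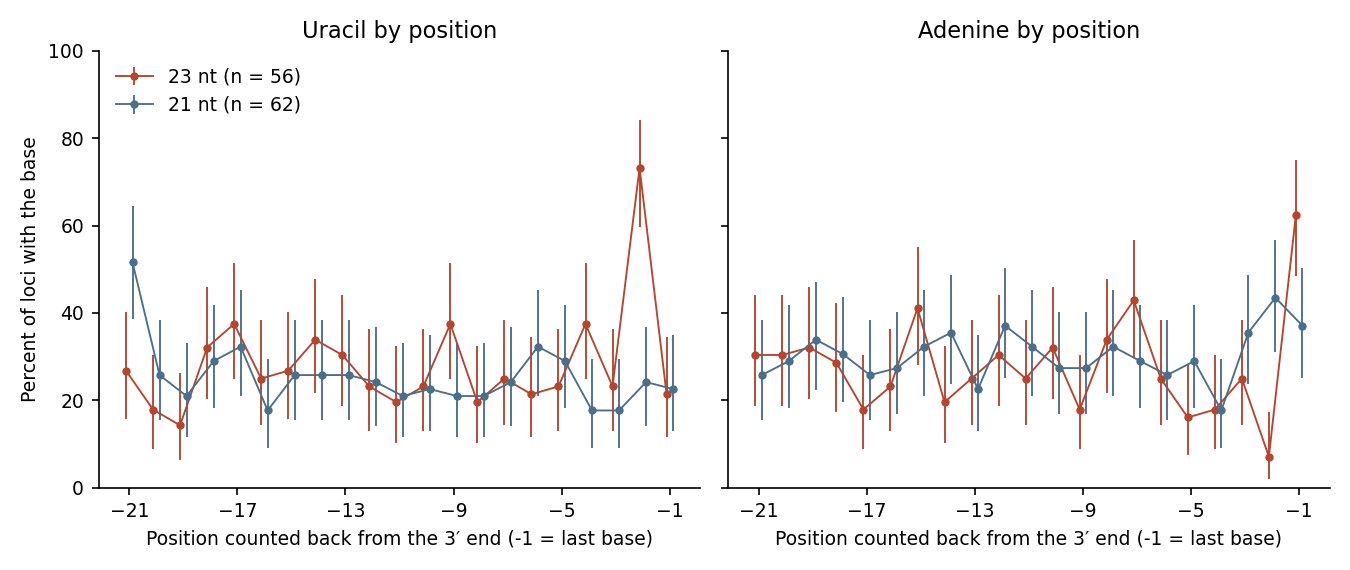
Percent of loci with uracil (left) and adenine (right) at each position counted back from the 3′ end, for the 56 loci of 23 nt and the 62 of 21 nt, with exact intervals. Uracil next to last stands at 73.2% in the 23-nt loci and 24.2% in the 21-nt loci, and adenine at the last base at 62.5% and 37.1%.

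The arms were used about evenly. The 5p arm gave 32 of the 56 loci (57.1%, interval 43.2 to 70.3%), against 31 of 62 (50%, 37 to 63%) in the 21-nt loci. GC content had a median of 43.5% (range 21.7 to 65.2%) in the 23-nt loci and 45.2% (19.0 to 61.9%) in the 21-nt loci. Over all bases the 23-nt loci held 28.3% A, 15.1% C, 28.4% G and 28.1% U. In 4 of the 56 sequences only 2 bases made up over 85% of the letters.

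The hairpin table used here held 52 of the 56 loci. They lay on 9 scaffolds, with 14 on scaffold 1 and 9 on scaffold 7, and 22 were on the plus and 30 on the minus strand. m0018 and m0019 were the only pair of 23-nt loci with hairpins within 10000 nt of each other, 9339 nt apart on scaffold 1. m0018-3p had 10 reads and m0019-3p had 11. In every one of the 52 hairpins exactly 10 nt lay between the small RNA and one end of the hairpin, so the hairpin ends were set by the prediction and not measured.

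The 23-nt hairpins folded less stably than those of 21 nt. RNAfold gave a median energy of -22.8 kcal/mol per 100 nt (interval -25.4 to -20.3) for the 52 hairpins of the 23-nt loci and -39.5 (-42.8 to -33.9) for 59 hairpins of the 21-nt loci, and these intervals do not overlap. Only 4 of the 52 were more stable than the 21-nt median. Hairpin length had a median of 166 nt (interval 111 to 202) in the 23-nt loci and 135 nt (117 to 176) in the 21-nt loci. Among hairpins of at most 150 nt, the medians were -25.7 (n = 24, interval -37.5 to -20.7) in the 23-nt loci and -42.3 (n = 32, -46.7 to -39.1) in the 21-nt loci, so the gap was also present in the shorter ones. This length limit was chosen after the data were seen.

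Within the folded hairpin, a median of 18 of the 23 bases were paired (range 11 to 21), against 19 of 21 bases (range 14 to 21) in the 21-nt loci. These counts include pairs inside the small RNA itself, present in 2 of the 52. Fewer than 16 bases were paired in 6 of 52 and in 2 of 59 21-nt loci. The study's prediction asked for at least 16 pairs between the strands and at most -18 kcal/mol. That limit is for the total energy of a hairpin. As refolded here, 1 of the 52 was weaker than -18 kcal/mol, at -17.5. Per 100 nt, the most abundant locus, m0069, had the weakest energy of all 52, -13.8 kcal/mol, in a hairpin of 335 nt. The total for m0069 was -46.3 kcal/mol, against a median total of -38.8 for the 52. m0248 lay in the longest hairpin, 365 nt, and 8 of its bases paired with other bases of the small RNA itself. m0190 differed from both, with 21 paired bases and -39.1 kcal/mol per 100 nt.

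Its hairpin is printed with the small RNA in capitals, next to the shortest hairpin, that of m0236, and that of the 21-nt locus m0159 (548 reads), the most abundant of its class among hairpins of at most 110 nt. m0190 lies on scaffold 6, 7765797 to 7765903, plus strand. m0236 lies on scaffold 7, 5696654 to 5696723, minus strand. m0159 lies on scaffold 5, 190969 to 191072, plus strand. Coordinates are those of the study's hairpin table, whose genome release was not stated, and no gene annotation was used.
m0190: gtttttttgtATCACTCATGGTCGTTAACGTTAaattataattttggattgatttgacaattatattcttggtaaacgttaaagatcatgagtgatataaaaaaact
m0236: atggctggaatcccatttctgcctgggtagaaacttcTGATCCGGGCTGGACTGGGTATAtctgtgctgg
m0159: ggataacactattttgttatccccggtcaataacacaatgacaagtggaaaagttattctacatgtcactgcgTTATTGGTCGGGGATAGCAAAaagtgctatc
m0236 had -39.4 kcal/mol per 100 nt with 18 paired bases, and m0159 had -51.9 with 21 paired bases. The small RNA lies near the 5′ end of the hairpin in m0190 and near its 3′ end in m0236 and m0159.

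**Figure D3:**
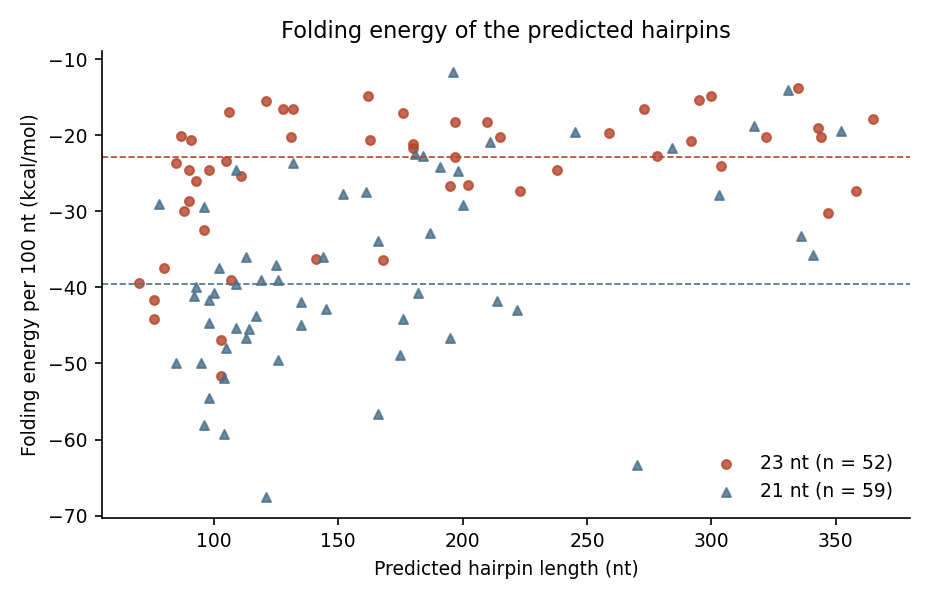
Folding energy per 100 nt (kcal/mol, lower is more stable) against predicted hairpin length (nt) for 52 loci of 23 nt and 59 of 21 nt, with each class median as a dashed line. The medians stand at -22.8 and -39.5 kcal/mol per 100 nt.

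A few of the 56 sequences resembled each other. m0228 and m0061 shared 21 nt, and m0163 shared 14 nt with each. The 14 shared bases are in capitals.
m0228-3p: tagctGGGCGGCTATACTCtata
m0061-5p: tatagctGGGCGGCTATACTCta
m0163-5p: cGGGCGGCTATACTCgggtttta
The whole sequence of m0061 also lay inside the hairpin of m0228, so it had a second copy in the genome although the list gave it 1 locus. m0228 had 14 reads, m0163 had 12 and m0061 had 7, and their counting intervals overlap. The 3 hairpins had -36.4, -44.2 and -36.3 kcal/mol per 100 nt, in the same order.

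As a check for cleavage, the 56 names were looked up in the degradome list. Any row was listed for 3 of the 56 (5.36%, interval 1.12 to 14.9%), namely m0044, m0240 and m0246, against 20.7% (16.1 to 26.0%) of all 275 predicted loci, 11 of the 62 21-nt loci (17.7%, 9.20 to 29.5%) and 16 of the 88 loci of 20 to 22 nt (18.2%, 10.8 to 27.8%). The interval of the 23-nt loci overlaps those of the 21-nt loci and the loci of 20 to 22 nt. It ends below that of all predicted loci, which include the 56. However, the 275 also count loci with 2 listed arms and loci that share a sequence. Loci of the same sequence, such as m0107 and m0108, repeat the same rows, so they are not independent. A share over distinct sequences was not computed. None of the 56 had a row with the authors' p-value below 0.05 (0%, interval 0 to 6.38%), against 8% (5.08 to 11.9%) of all predicted loci and 2 of 62 (3.23%, 0.393 to 11.2%) in the 21-nt loci, and all these intervals overlap. None of the 10 most abundant 23-nt loci was listed. m0246 had 29 reads, m0240 had 13 and m0044 had 12.

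**Figure D4:**
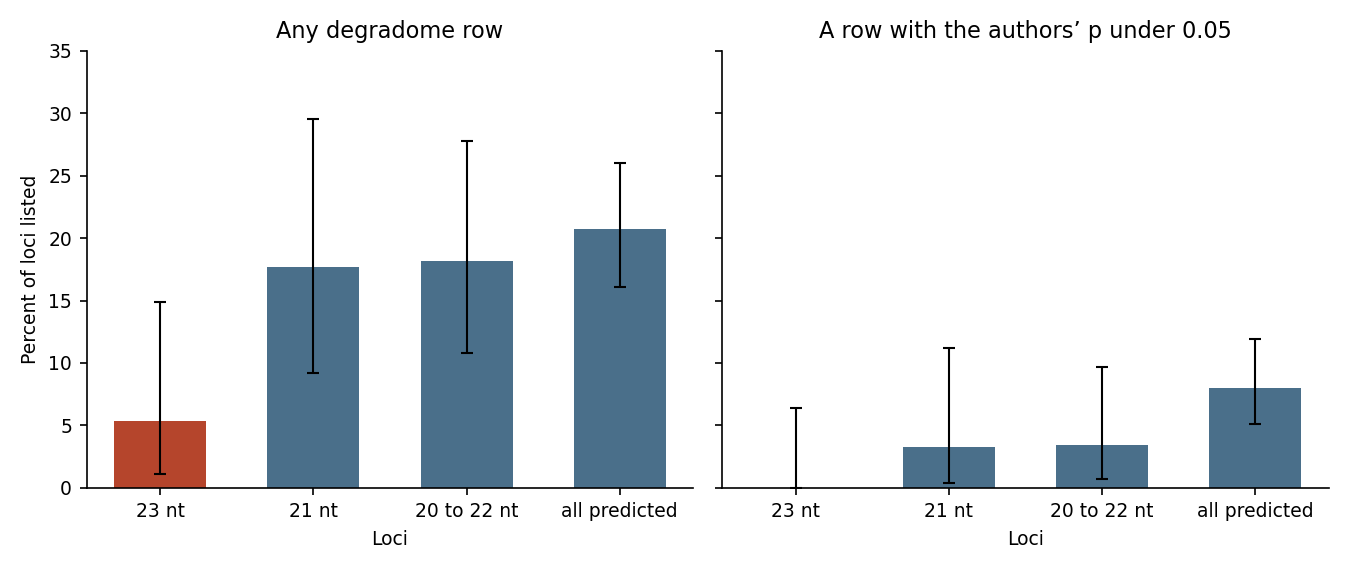
Percent of loci with any degradome row (left) and with a row at the authors' p-value under 0.05 (right), with exact intervals, for the 56 loci of 23 nt, the 62 of 21 nt, the 88 of 20 to 22 nt and all 275 predicted loci. The 23-nt loci stand at 5.36% and 0%, and all predicted loci at 20.7% and 8%.

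m0240 and m0246 consist mostly of alternating A and G and are printed with listed target sites, taken from the alignments, to show which letters pair. The capital in a site marks the base at the cleavage site. Small RNAs and sites are both written 5′ to 3′, so the first base of a small RNA stands opposite the last base of a site.
m0246-3p: agagacagagagagacagagaca
m0240-5p: agaggcggagagagagagagaca
ppb010066m site: ucucucucucucuCucucucucu
ppa013998m site: ugucucucucucuCucucucucu
Their sequences agree at 20 of 23 bases. Of the 34 rows with a site sequence in the alignments, 22 held only C and U. They were 20 of the 25 sites of m0246 and 2 of the 9 sites of m0240. A site listed for both small RNAs was counted for each. Strict repeats of UC made up 17 of the 25 sites of m0246 and 0 of the 9 of m0240. 

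m0246 had 43 rows on 42 transcripts and m0240 had 11 rows on 11 transcripts. Of the 11 sites of m0240, 7 were also listed for m0246 (63.6% of the sites of m0240 and 16.3% of those of m0246), so these rows rest on the same reads. The lowest deposited p-value over the 56 rows was 0.221, for m0246 and ppa013998m at site 25, with 5 raw reads. The most raw reads were 12 at ppa013100m (interval 6.2 to 21), 7 at ppb010066m, 6 each at ppa010548m and ppa010577m, and 5 at ppa013998m. The first 4 of these transcripts were listed with m0246 and had a p-value of 1, and ppa013998m was listed with both. ppa010548m and ppa010577m had the same site, 125, and a normalized value of 3 each, that is, their 6 reads were shared.

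m0044 does not alternate A and G, although ATTGG recurs in it, and is printed because it is the only other listed locus.
m0044-5p: gatattggattggatgattggtt
It had 2 rows, on ppa016955m at site 169 and on ppa012391m at site 222. Each had 1 raw read and a normalized value of 0.5, with a p-value of 0.52. As the normalized value is below the raw count, both rows may rest on the same 1 read, which was not tested.

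Of the 56 rows, 31 (55.4%) had a single raw read, against 14 of 22 rows (63.6%) of the 21-nt loci and 191 of all 413 other rows (46.2%). None of the 56 was in category 0 or 1, the categories for a site with the most reads of its transcript. Of the 413 other rows, 68 were in category 0. In position, 49 of the 56 rows (87.5%) lay within 150 nt of the transcript start, with a median site of 54, against 12 of 123 rows (9.76%) and a median of 1062 for the other predicted sequences. This limit was chosen after the sites were seen. Rows of 1 small RNA share its sequence and are not independent. The rows within 150 nt were 39 of the 43 of m0246, 10 of the 11 of m0240 and 0 of the 2 of m0044. They therefore describe the 2 similar repeats and not the 23-nt loci as a class. Some of the 123 comparison rows also repeat a site for loci of the same sequence. Cleavage fell opposite base 10 in 54 of the 56 rows (96.4%), against 369 of 413 (89.3%) in all other rows, and sites near that base are what the list was searched for.

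**Figure D5:**
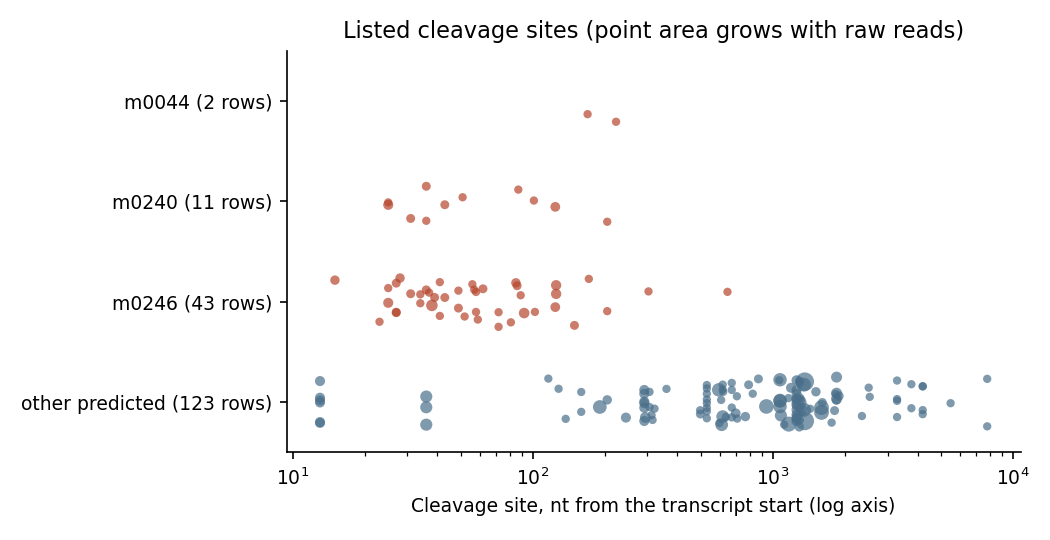
Listed cleavage sites in nt from the transcript start, on a log axis, for m0044 (2 rows), m0240 (11 rows), m0246 (43 rows) and the other predicted sequences (123 rows), with point area growing with raw reads. The median site is 54 over the first 3 together and 1062 over the others.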

How the data were processed

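Both deposited tables were used, 1 small RNA list and 1 degradome list, each from 1 library of RNA pooled over stages. The small RNA counts were made by the authors, who removed low-quality, adaptor and other RNA reads, matched the rest to known plant miRNAs and ran MIREAP on the unannotated ones. In the degradome table, the authors gave raw reads as counts, a normalized read signal, an alignment score and a p-value from CleaveLand, which is not adjusted. No genome release was found in the sources used here. In 11 cells the alignment range had become a date, whose month and day were taken as start and end.

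Loci were chosen by name, length and sequence alone. The members and lists were chosen with earlier results of these data known. Named loci are the 10 with the most and 3 with the fewest reads, those with a degradome row, those sharing 14 nt or a seed (bases 2 to 8) with another or a conserved family, and those with hairpins within 10000 nt. In addition, m0179 is named for its agreement with m0061 and m0228. Named transcripts are those of the 5 rows with the most reads, those with p under 0.05 and those of loci with at most 5 rows. Hairpin sequences and places, and target sites, come from the study's supplementary tables, as sequence only. Hairpins were folded with ViennaRNA 2.7.2. The cleavage position was counted from the last aligned base, as that base minus the site plus 1. Shares have Clopper-Pearson intervals, counts Poisson intervals and medians order-statistic intervals, at the 95% level. No test was made, as there is no replicate. The tools were SciPy 1.17.1, NumPy 2.4.6, matplotlib 3.10.9 and pandas 2.3.3 under Python 3.11.15, and the functions were tested on simulated data.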

Additional observations from a re-analysis of the deposited data

How the results depend on the processing

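Of 47 alternative values, 39 stayed within the interval of the reported one (counts of loci within 1.5 times) and 8 did not. Weighted by reads, U was first in 13.2% and the 5p arm gave 41.7%. With at least 10 reads the median count was 14.5, by construction. At p under 0.05 the share with a degradome row was 0%. Position 10 was hit in 100% of rows both where the aligned stretch was as long as the small RNA and without low-complexity loci, where 2 rows were left. The median energy per 100 nt was -31.1 kcal/mol at 25 °C and -25.7 for hairpins of at most 150 nt, against -49.0 and -42.3 in the 21-nt loci. Settings on UA, U next to last and hairpin length were chosen after seeing the data. Without low-complexity loci, 1 of 52 (1.92%) had a degradome row. Counts of 5 to 9 reads limit the precision for 16 loci. No paired analysis was possible because each library has 1 sample.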
